A study of Arabidopsis thaliana with 12 samples.

Results

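The comparison asked where the combined loss of BRM and REF6 in Arabidopsis thaliana seedlings gave a transcript level other than the sum of the separate losses. For each gene, the log2 difference between brm-1 ref6-1 and brm-1 was set against the log2 difference between ref6-1 and WT, and the gap between them is called the interaction. A positive interaction means a higher level in brm-1 ref6-1 than the summed single-mutant changes predict, and a negative one means a lower level. The deposited table covers 29420 loci, and the 22076 that passed a filter on low counts were tested. Of these, 54 passed at an adjusted p under 0.05 and are called here, 41 with a positive and 13 with a negative interaction.

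The groups were the combined mutant brm-1 ref6-1, the single mutants brm-1 and ref6-1, and the wild type (WT), with 3 libraries each and 12 in all. Whole seedlings were 14 days old and had been raised at a constant temperature under long days on MS medium, and no group received another treatment. Each mutation is represented by 1 allele, so an effect of the allele and of the loss of the gene cannot be told apart. The labels number 3 replicates a group but also say that RNA of biological replicates was pooled, so the p-values may measure technical spread only.

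BRM (BRAHMA) is the ATPase of a SWI/SNF complex, a machine that slides or evicts nucleosomes and so opens or closes DNA to other factors. REF6 is a Jumonji demethylase that removes the methyl marks placed by Polycomb complexes on lysine 27 of histone H3, marks that go with silent genes. In Arabidopsis REF6 binds DNA through its zinc fingers at a short motif and is known to help bring BRM to part of its sites. Arabidopsis ref6 mutants are known to flower late and hold high levels of FLC, a MADS-box repressor of flowering.

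Library totals ran from 10119148 to 11860892 counts. BRM was counted 60, 35 and 438 times in brm-1 ref6-1, 43, 50 and 74 times in brm-1, 3012, 2761 and 3003 times in ref6-1, and 3282, 2998 and 3067 times in WT. Replicate 3 of brm-1 ref6-1 thus stood apart, at 14.7% of the WT level, and the number of genes called is given with and without it. The interaction of BRM itself was 1.81 ± 0.94 on the log2 scale (SE, edgeR adjusted p = 0.576), and -0.07 without that library. REF6 was counted 800 to 863 times in brm-1 ref6-1, 932 to 1056 times in brm-1, 874 to 892 times in ref6-1 and 908 to 1116 times in WT. Since transcripts of ref6-1 were counted near the WT level, its label could not be checked by REF6 counts. Photosynthesis genes summed to 2055 to 2219 CPM (counts scaled to a common library size) in brm-1 ref6-1 and 1903 to 2074 CPM in WT, and root markers to 258 to 282 and 261 to 312 CPM, as a whole green seedling with roots would hold. Seed maturation genes summed to 86.2 to 170 CPM in brm-1 ref6-1, 39.6 to 82.7 in brm-1, 23.7 to 27.1 in ref6-1 and 26.4 to 29.5 in WT. In whole seedlings, fewer cells of a type and less RNA per cell cannot be told apart.

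Departures from the sum were called far less often than the changes themselves. The 54 calls are 0.245% of the genes tested (0.186% positive, 0.0589% negative), while 2254 genes (10.2%) had an unadjusted p under 0.05. Against WT, 6897 genes (31.2%) were called in brm-1 ref6-1, 4193 (19%) in brm-1 and 1756 (7.95%) in ref6-1. Between mutants, 2638 genes (11.9%) were called for brm-1 ref6-1 against ref6-1 and 968 (4.38%) for brm-1 ref6-1 against brm-1. The interaction combines 4 group means and its median SE was 0.10 on the log2 scale, against 0.07 for a comparison of 2 groups. The median interaction over all genes tested was 0.00. Without brm-1 ref6-1 replicate 3, 55 genes were called, 41 of them among the 54.

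**Figure D1:**
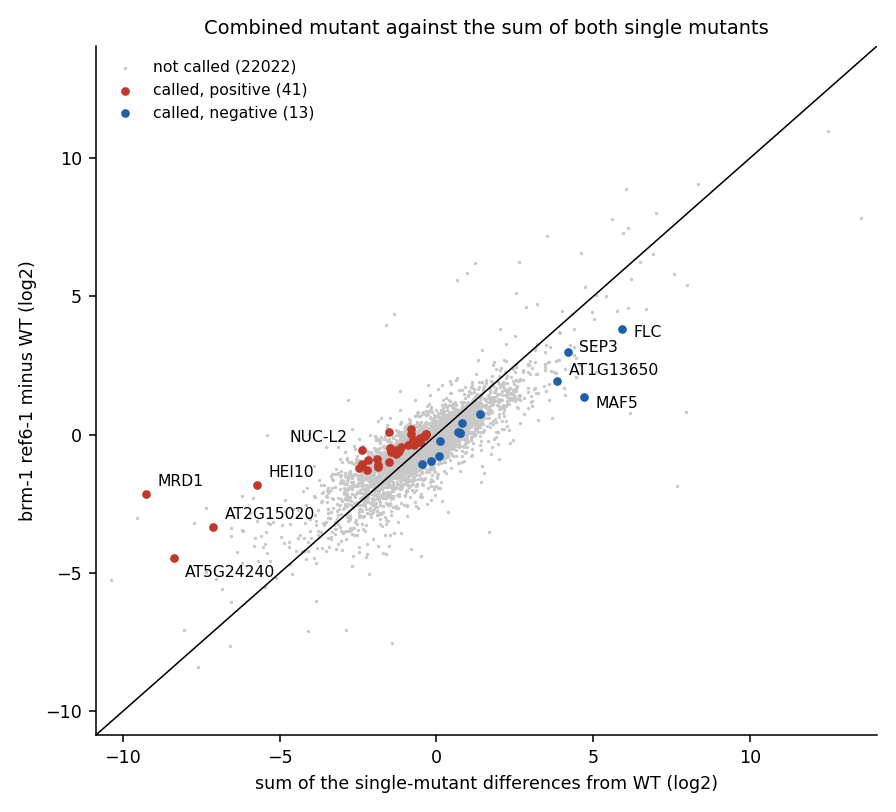
Each point is 1 of 22076 genes, placed by the sum of its log2 differences from WT in brm-1 and ref6-1 (x axis) and its log2 difference from WT in brm-1 ref6-1 (y axis). The line marks equality: the 41 genes with a positive call (red) lie above it, most of them left of 0, and the 13 with a negative call (blue) lie below it.

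Called genes mostly lay on the same side of WT in all 3 mutants. Of the 41 positive genes, 34 were below WT in brm-1 ref6-1, brm-1 and ref6-1, 0 were above it in all of them and 7 were mixed. In 24 of the 34, the 3 mutant means were closer to each other than the nearest of them was to WT. Median log2 differences from WT for the 41 were -0.37 in brm-1 ref6-1, -0.41 in brm-1 and -0.60 in ref6-1, where the summed single changes had a median of -1.13. Of the 13 negative genes, 9 were above WT in all 3 mutants, 1 was below it in all of them and 3 were mixed. The WT libraries enter each of these differences and, with the opposite sign, the interaction. A WT mean that is high by chance therefore lowers all 3 differences and raises the interaction. A single-mutant mean that is low by chance likewise lowers its own difference and raises the interaction. The part of either in these counts was not tested, and the shares of these patterns over all genes tested are not given.

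Among the negative calls were 3 genes of MADS-box transcription factors, and among the positive ones 3 transcription factor genes from the morning clock list. The 250 bases before the annotated start are shown for 5 of them, because they hold short motifs known from clock and light regulation. Capitals mark the evening element (AAAATATCT, or AGATATTTT on the other strand), a site bound by clock MYB factors, and the G-box (CACGTG), a site of light-signalling factors. The sequences are RefSeq's, build TAIR10.1, written along the gene's strand from 5′ to 3′. That of MAF5 spans chr5:25997254-25997503 on the plus strand, that of FLC chr5:3179449-3179698 on the minus strand and that of SEP3 chr1:8596124-8596373 on the minus strand. That of CDF2 spans chr5:15878448-15878697 on the plus strand and that of RVE1 chr5:5692993-5693242 on the minus strand.
MAF5: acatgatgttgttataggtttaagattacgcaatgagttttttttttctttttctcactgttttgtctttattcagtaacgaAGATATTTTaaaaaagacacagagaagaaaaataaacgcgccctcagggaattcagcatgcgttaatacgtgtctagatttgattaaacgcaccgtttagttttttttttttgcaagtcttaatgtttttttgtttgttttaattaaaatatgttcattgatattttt
FLC: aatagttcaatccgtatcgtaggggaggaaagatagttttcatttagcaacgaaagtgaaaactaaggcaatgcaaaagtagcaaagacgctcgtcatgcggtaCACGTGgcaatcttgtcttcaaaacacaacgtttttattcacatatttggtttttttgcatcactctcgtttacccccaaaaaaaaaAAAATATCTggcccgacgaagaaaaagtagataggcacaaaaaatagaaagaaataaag
SEP3: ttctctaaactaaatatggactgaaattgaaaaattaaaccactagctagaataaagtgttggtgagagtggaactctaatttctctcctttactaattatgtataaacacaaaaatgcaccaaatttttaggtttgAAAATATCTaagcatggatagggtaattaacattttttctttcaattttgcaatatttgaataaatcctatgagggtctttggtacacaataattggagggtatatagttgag
CDF2: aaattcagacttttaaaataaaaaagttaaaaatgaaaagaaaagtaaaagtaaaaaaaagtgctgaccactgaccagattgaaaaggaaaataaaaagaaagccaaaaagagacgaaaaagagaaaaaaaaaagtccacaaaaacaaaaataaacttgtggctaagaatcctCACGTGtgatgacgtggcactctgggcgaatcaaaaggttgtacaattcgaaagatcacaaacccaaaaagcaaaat
RVE1: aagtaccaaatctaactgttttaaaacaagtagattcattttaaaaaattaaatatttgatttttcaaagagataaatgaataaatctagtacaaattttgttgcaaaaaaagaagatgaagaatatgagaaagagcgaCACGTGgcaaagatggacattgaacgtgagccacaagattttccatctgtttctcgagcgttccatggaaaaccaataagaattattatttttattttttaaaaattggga

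In windows from 250 bases before to 50 bases after the start, searched on both strands, the evening element was present in 3 of 13 negative genes (23.1%), 0 of 40 positive genes with a window and 2.96% of 21795 windows of genes tested. Those 3 were MAF5, FLC and SEP3, where it began 168, 59 and 113 bases before the start. The G-box was present in 6 of 40 positive genes (15%), 2 of 13 negative genes (15.4%) and 8.6% of all windows, and began 77 bases before the start of CDF2, 111 before that of RVE1 and 146 before that of FLC. The CCA1 binding site (AAAAATCT), a sequence bound by the clock protein CCA1, was in 5 of 40 positive genes (12.5%), 0 of 13 negative genes and 7.91% of all windows. None of the 5 stretches shown holds it. The window of CDF1, the called gene of the morning clock list not shown, holds none of the 3 motifs. These 3 motifs were chosen after the called genes were seen. The motif that REF6 itself binds (CTCTGCTC, CTCTGCTT, CTCTGTTC or CTCTGTTT, both strands) was in 1 of 40 positive genes (2.5%), 2 of 13 negative genes (15.4%) and 7.52% of all windows. A match is a description of the letters in this window and not a binding site.

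FLC (AT5G10140, chromosome 5, 3173382 to 3179448, TAIR10.1), which represses flowering, was high in every mutant and highest in the combined one. It had 36.4, 39.8 and 37.1 CPM in brm-1 ref6-1, 21.7, 22.8 and 22.6 in brm-1, 18.8, 19.5 and 18.2 in ref6-1, and 3.49, 1.84 and 2.53 in WT. No group's libraries overlapped those of another. Against WT its log2 difference was 3.83 in brm-1 ref6-1, 3.08 in brm-1 and 2.83 in ref6-1, each called. The interaction was -2.07 ± 0.18 (SE, edgeR adjusted p = 0.00043), so that the level reached was 0.238 of the 161 CPM that summed log2 changes predict. Added as CPM, the single-mutant gains predict 38.6 CPM, against a mean of 37.8 CPM in brm-1 ref6-1 (departure -0.804 ± 1.25 CPM, SE, limma adjusted p = 0.895). FLC thus departed from additivity on the log2 scale and not detectably on the CPM scale.

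MAF5 (AT5G65080, chromosome 5, 25997504 to 26002619), a relative of FLC that also delays flowering, was lower in brm-1 ref6-1 than in ref6-1. Its libraries had 7.13, 4.44 and 7.81 CPM in brm-1 ref6-1, 10.07, 10.01 and 10.16 in brm-1, 14.4, 19.0 and 15.1 in ref6-1, and 2.30, 2.75 and 2.44 in WT. The 4 groups did not overlap, and brm-1 ref6-1 was the closest mutant to WT. The interaction was -3.33 ± 0.27 (SE, edgeR adjusted p = 0.00043), the largest negative value called. Relative to ref6-1, MAF5 in brm-1 ref6-1 was lower, with a log2 difference of -1.32 (edgeR adjusted p = 0.00055), while relative to brm-1 its difference of -0.64 missed the threshold (0.0735). On the CPM scale it was also below the sum, by -17.3 ± 1.77 CPM (SE, limma adjusted p = 0.000534). MAF genes resemble each other in sequence, so how reads were assigned among them is uncertain.

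SEP3 (AT1G24260, chromosome 1, 8593536 to 8596123) encodes a MADS-box factor that floral organ identity proteins need as a partner. It had 64.7, 68.0 and 55.5 CPM in brm-1 ref6-1, 42.6, 46.2 and 51.2 in brm-1, 24.4, 26.04 and 23.7 in ref6-1, and 6.31, 8.26 and 9.32 in WT. All groups were apart, with brm-1 ref6-1 highest. Its interaction was -1.21 ± 0.17 (SE, edgeR adjusted p = 0.0148), with log2 differences from WT of 2.98 in brm-1 ref6-1, 2.55 in brm-1 and 1.64 in ref6-1. Summed CPM gains predict 63.4 CPM and the mean was 62.7, a departure of -0.672 ± 4.64 CPM (SE, limma adjusted p = 0.975). The log2 call of SEP3 ended without ref6-1 replicate 2 (edgeR adjusted p = 0.0595) and under limma-voom (0.0618), and its adjusted p spanned 3.08e-07 to 0.0618 across the log2 alternatives.

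**Figure D2:**
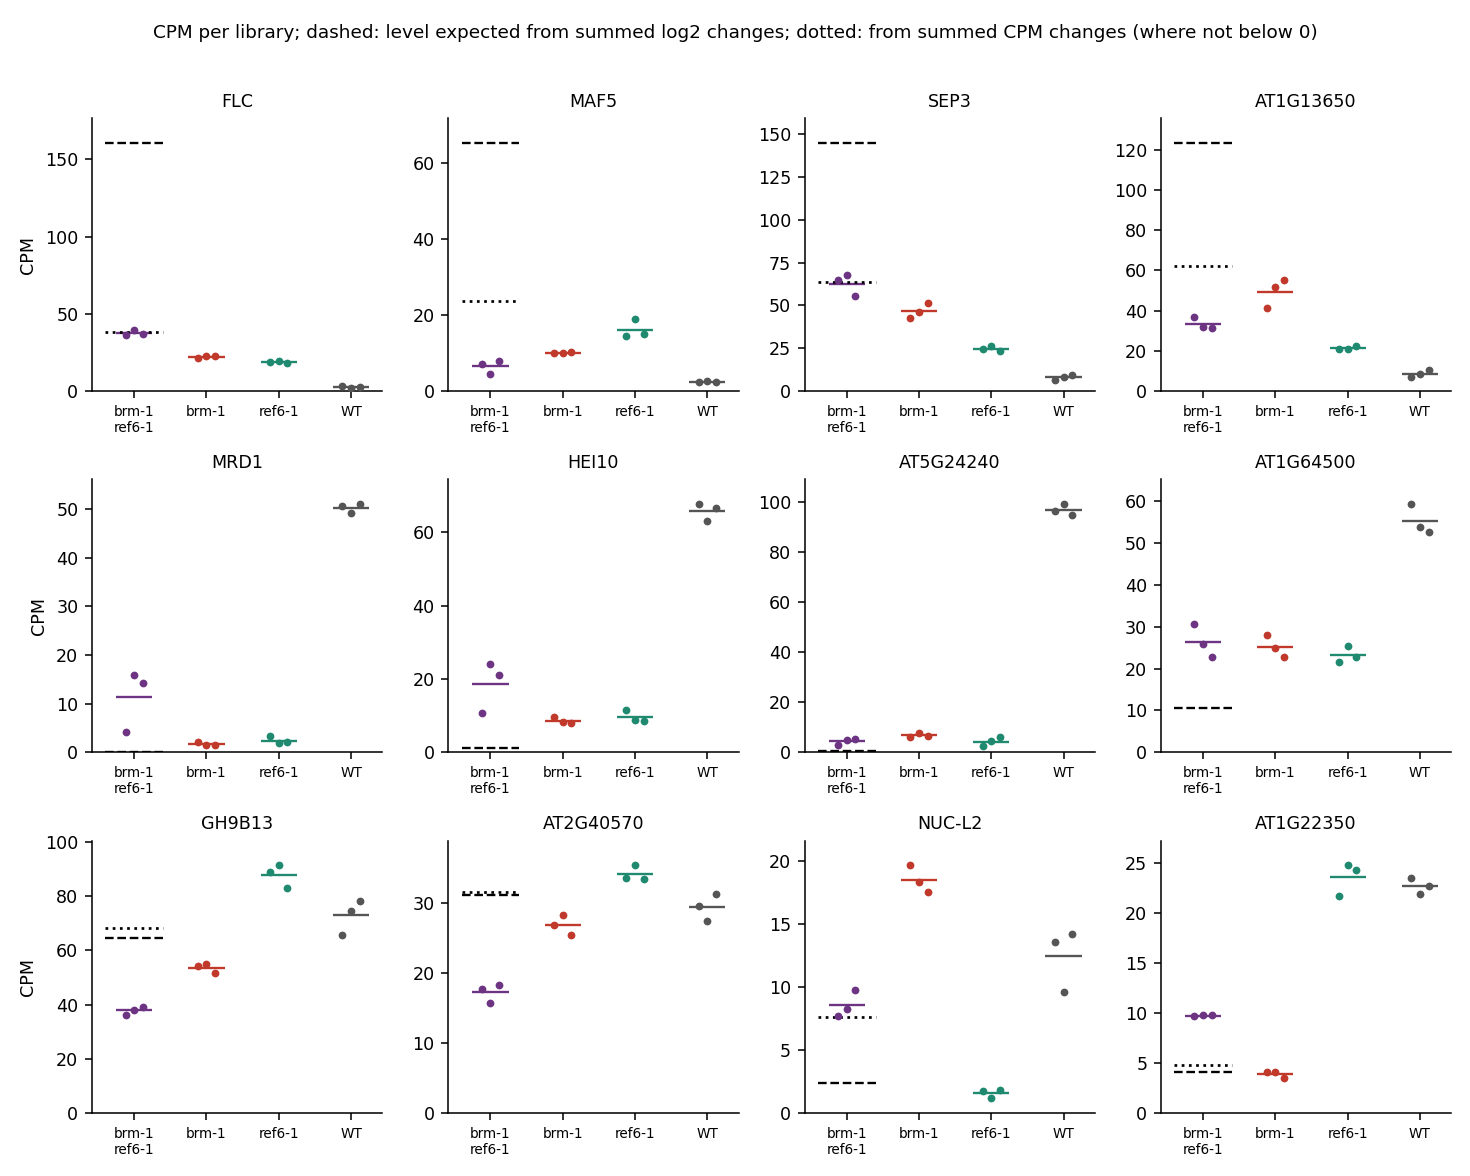
CPM of 12 called genes in each library (points) by genotype, with group means (coloured lines) and the brm-1 ref6-1 level expected from summed log2 changes (dashed) or summed CPM changes (dotted, drawn where not below 0). FLC at 37.8 CPM and SEP3 at 62.7 CPM in brm-1 ref6-1 sit at the dotted line and far under the dashed one, while MRD1, HEI10 and AT5G24240 are low in every mutant.

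In the flowering time list, 2 of 29 measured members were called, FLC and MAF5, both negative (0.0589% of all genes tested), and 23 of 29 had a negative sign, as did 49.1% of all genes tested. The median interaction of the list was -0.13, beside 0.00 over all genes. MAF4, which lies beside MAF5 in the same gene cluster, had an interaction of -1.21 ± 0.24 that missed the threshold (SE, edgeR adjusted p = 0.0735), with 7.54 CPM in brm-1 ref6-1, 9.21 in brm-1, 7.35 in ref6-1 and 3.88 in WT. MAF1, MAF2 and MAF3 had interactions of -0.12, -0.10 and -0.04, and log2 differences from WT between -0.08 and 0.09 in all 3 mutants. FT, the mobile signal that starts flowering, had 13.8 CPM in brm-1 ref6-1, 9.92 in brm-1, 9.88 in ref6-1 and 4.04 in WT, with an interaction of -0.81 ± 0.21 (SE, edgeR adjusted p = 0.177). SOC1, which integrates flowering signals, had one of -0.22 ± 0.09 and CO, the activator of FT, one of -0.67 ± 0.17, and neither passed. In the floral organ list 1 of 11 measured members was called, SEP3, with a negative interaction (0.0589% of all genes tested). Members such as AP1 were low in WT and may have passed the filter only through the mutants. No median is therefore given for this list. SEP1 (-1.65 ± 0.58, edgeR adjusted p = 0.335) and SEP4 (-0.22 ± 0.16) did not pass, nor did AP1, a floral identity gene with 0.862 CPM in WT (-0.55 ± 0.76). These list members other than FLC, MAF5 and SEP3 were named after their values were seen.

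A negative call of another kind was AT1G13650 (chromosome 1, 4680290 to 4682382), a gene of unknown function. It had 36.6, 31.8 and 31.5 CPM in brm-1 ref6-1, 41.6, 51.7 and 55.0 in brm-1, 21.0, 20.9 and 22.5 in ref6-1, and 7.16, 8.35 and 10.3 in WT. The combined mutant lay between the single mutants, all of them above WT, and no groups overlapped. Its interaction was -1.89 ± 0.18 (SE, edgeR adjusted p = 0.00107).

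In other negative calls brm-1 ref6-1 lay below WT and below both single mutants. GH9B13 (AT4G02290, chromosome 4, 1002338 to 1005305), a gene of the glycosyl hydrolase family that holds plant cellulases, had 36.2, 38.2 and 39.2 CPM in brm-1 ref6-1, 54.3, 54.9 and 51.5 in brm-1, 88.8, 91.3 and 82.9 in ref6-1, and 65.7, 74.6 and 78.3 in WT. GH9B13 fell in brm-1 alone (-0.44, edgeR adjusted p = 0.0004). Loss of REF6 raised it by 0.27 in the WT background (edgeR adjusted p = 0.015) and lowered it in the brm-1 background, by -0.50 (0.0015). The interaction was -0.77 ± 0.09 (SE, edgeR adjusted p = 0.003). AT2G40570 (chromosome 2, 16940822 to 16943515), annotated as an initiator tRNA phosphoribosyl transferase family gene, had 17.6, 15.7 and 18.3 CPM in brm-1 ref6-1, 26.8, 28.2 and 25.4 in brm-1, 33.5, 35.3 and 33.4 in ref6-1, and 29.6, 27.4 and 31.3 in WT. Neither single mutation moved it past the threshold, and together they lowered it by -0.77 (edgeR adjusted p = 2.2e-05), an interaction of -0.85 ± 0.10 (SE, 0.0043). The brm-1 ref6-1 libraries of both genes lay below all others.

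In 2 further genes brm-1 ref6-1 was also the lowest group. EP3 (AT3G54420), a chitinase gene that overlaps other counted genes, had 11.5 to 12.7 CPM in brm-1 ref6-1, 21.9 to 23.8 in brm-1, 19.0 to 21.4 in ref6-1 and 24.8 to 26.3 in WT. FMA (AT3G24140), also written FAMA, a factor that ends the divisions forming guard cells, had 47.9 to 53.3 CPM in brm-1 ref6-1, 61.8 to 64.7 in brm-1, 58.7 to 61.5 in ref6-1 and 58.0 to 59.8 in WT. EP3 also fell in ref6-1 alone (-0.32, edgeR adjusted p = 0.02), and fell by 1.07 on the log2 scale with both mutations. The interactions of EP3 and FMA were -0.61 ± 0.11 and -0.34 ± 0.06 (SE, edgeR adjusted p = 0.0395 and 0.0366), and each was called in 1 of the 12 fits that left out a library. AT1G13650, GH9B13, AT2G40570, EP3 and FMA were named after their values were seen.

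The largest positive interactions belonged to genes that were far below WT in each mutant. MRD1 (AT1G53480, chromosome 1, 19963047 to 19964712), named for its fall in a methionine-overaccumulating mutant, had 43, 161 and 154 counts in brm-1 ref6-1, 24, 16 and 16 in brm-1, 37, 20 and 22 in ref6-1, and 594, 537 and 564 in WT. All mutant libraries were far below WT, and replicate 1 of brm-1 ref6-1 was nearer to the single mutants than replicates 2 and 3 were. Its log2 differences from WT were -2.13 in brm-1 ref6-1, -4.88 in brm-1 and -4.39 in ref6-1, each called, and its interaction was 7.14 ± 0.62 (SE, edgeR adjusted p = 0.00117). Relative to brm-1, MRD1 was higher in brm-1 ref6-1 by 2.75 (edgeR adjusted p = 0.011), and relative to ref6-1 by 2.25 (0.0088). Summed log2 changes predict 0.0798 CPM, less than 1 count in a library of this depth.

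HEI10 (AT1G53490, chromosome 1, 19963267 to 19966952), which encodes a protein that promotes meiotic crossovers, overlaps MRD1 by 1446 bases on the other strand. The strand setting of the counting is not given in the sources used here, so reads from the pair cannot be told apart. HEI10 had 10.6, 24.0 and 21.2 CPM in brm-1 ref6-1, 9.57, 8.19 and 7.91 in brm-1, 11.5, 8.71 and 8.49 in ref6-1, and 67.7, 63.0 and 66.6 in WT. Replicate 1 of brm-1 ref6-1 was within the single-mutant range and replicates 2 and 3 were above it. Its interaction was 3.89 ± 0.34 (SE, edgeR adjusted p = 0.00114), and 4.17 without brm-1 ref6-1 replicate 1, where that of MRD1 was 7.53.

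AT5G24240 (chromosome 5, 8230916 to 8234150), annotated as a phosphatidylinositol 4-kinase gamma-like gene, was low in every mutant. It had 2.99, 5.03 and 5.20 CPM in brm-1 ref6-1, 6.10, 7.64 and 6.35 in brm-1, 2.31, 4.26 and 5.94 in ref6-1, and 96.4, 99.0 and 94.6 in WT. The brm-1 ref6-1 libraries overlapped those of ref6-1 and lay below those of brm-1, and none came near WT. The interaction was 3.94 ± 0.35 (SE, edgeR adjusted p = 0.00107), and brm-1 ref6-1 differed from brm-1 by -0.60 (0.24) and from ref6-1 by 0.09 (0.89), neither called. It overlaps AT5G24230 by 49 bases. AT2G15020, of unknown function, had 1.77 to 4.14 CPM in brm-1 ref6-1, 2.09 to 4.32 in brm-1, 1.205 to 2.47 in ref6-1 and 19.9 to 40.6 in WT. Its interaction of 3.78 ± 0.59 (SE, edgeR adjusted p = 0.032) was lost in 7 of the 12 fits that left out a library, and adjusted p ran from 1.16e-08 to 0.248 over the log2 alternatives. Summed log2 changes predict 0.289 CPM for AT5G24240 and 0.201 CPM for AT2G15020, both near 0. Their means in brm-1 ref6-1 were 4.41 and 2.79 CPM. AT5G24240 and AT2G15020 were named after their values were seen.

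Smaller losses showed the same shape at levels well above 0. AT1G64500 (chromosome 1, 23953099 to 23954610), a glutaredoxin family gene, had 30.6, 25.9 and 22.7 CPM in brm-1 ref6-1, 28.0, 24.8 and 22.9 in brm-1, 21.6, 25.4 and 22.7 in ref6-1, and 59.3, 54.0 and 52.5 in WT. The 3 mutants overlapped, all below WT, with an interaction of 1.31 ± 0.15 (SE, edgeR adjusted p = 0.003). CYP707A2 (AT2G29090, chromosome 2, 12494826 to 12499723) encodes an enzyme that breaks down abscisic acid. It had 20.2, 20.3 and 21.7 CPM in brm-1 ref6-1, 18.2, 19.1 and 18.5 in brm-1, 21.7, 21.7 and 18.6 in ref6-1, and 43.1, 35.0 and 35.3 in WT. Its interaction was 1.03 ± 0.13 (SE, edgeR adjusted p = 0.00587), and summed log2 changes predict 10.2 CPM against a mean of 20.7. For neither gene was brm-1 ref6-1 called against brm-1 or against ref6-1. For CYP707A2 these differences were 0.16 against brm-1 and 0.01 against ref6-1 on the log2 scale. AT1G64500 was named after its values were seen.

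Further positive calls also lay below WT in all 3 mutants. SPA1, SPA3 and SPA4 encode partners of the COP1 ubiquitin ligase, which represses light responses. SPA3 (AT3G15354) had 78.7, 73.8 and 69.2 CPM in brm-1 ref6-1, 75.8, 82.0 and 68.8 in brm-1, 79.4, 77.6 and 76.9 in ref6-1, and 127, 119 and 113 in WT. The mutants overlapped and WT stood above them. Interactions were 0.58 ± 0.09 for SPA3, 0.53 ± 0.08 for SPA4 and 0.24 ± 0.04 for SPA1 (SE, edgeR adjusted p = 0.0234, 0.0228 and 0.032). SIGE (AT5G24120), or SIG5, a light-induced sigma factor of the plastid RNA polymerase, had 35.4 to 40.5 CPM in brm-1 ref6-1, 44.9 to 49.1 in brm-1, 40.8 to 41.1 in ref6-1 and 68.1 to 76.5 in WT, with an interaction of 0.52 ± 0.09 (SE, edgeR adjusted p = 0.032). SIGE also fell in brm-1 ref6-1 relative to brm-1 (-0.32, edgeR adjusted p = 0.012). Other genes called were CT-BMY (0.34), a chloroplast beta-amylase gene, PMI1 (0.32), needed for chloroplast movement, and CAT2 (0.29), a catalase gene. Of the 12 fits that left out a library, SPA4 was called in 9, SPA3 and CAT2 in 6, PMI1 in 5, SIGE in 4, and SPA1 and CT-BMY in 2. These genes were named after their values were seen.

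In the morning clock list, 3 of 13 measured members were called, all positive (0.186% of all genes tested), and 0 negative, with a median interaction of 0.34 and a range of -0.22 to 0.95. In brm-1 ref6-1, 12 of the 13 fell against WT, as did 17.3% of all genes tested. RVE1 (AT5G17300, chromosome 5, 5690225 to 5692992), a MYB-like factor linking the clock to auxin, had 21.0, 17.3 and 20.2 CPM in brm-1 ref6-1, 18.1, 21.7 and 21.6 in brm-1, 19.8, 23.1 and 27.6 in ref6-1, and 46.5, 46.9 and 48.9 in WT. The mutants overlapped at about the same level. Its interaction was 0.95 ± 0.16 (SE, edgeR adjusted p = 0.032). CDF2 (AT5G39660), with 20.9 to 23.9 CPM in brm-1 ref6-1, 22.1 to 26.9 in brm-1, 23.4 to 27.04 in ref6-1 and 42.8 to 51.3 in WT, and CDF1 (AT5G62430) encode Dof factors that repress CO and FT in the morning. Their interactions were 0.78 ± 0.13 and 0.69 ± 0.12 (SE, edgeR adjusted p = 0.032 and 0.043). RVE8, an activator of evening genes, had the largest loss of the list in brm-1 ref6-1, with 14.0 CPM in brm-1 ref6-1, 23.4 in brm-1, 16.7 in ref6-1 and 52.7 in WT, and its interaction of 0.92 ± 0.18 missed the threshold (edgeR adjusted p = 0.0735). The central oscillator genes LHY (0.85 ± 0.32) and CCA1 (0.42 ± 0.20) did not pass either.

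The evening clock list had 0 of 10 members called, interactions from -0.15 to 0.21 and a median of 0.06. In brm-1 ref6-1 its members lay between -0.13 and 0.10 from WT on the log2 scale, and 1 of them, PRR3, fell. TOC1, a repressor of the morning genes, was at 185 CPM in brm-1 ref6-1, 176 in brm-1, 181 in ref6-1 and 179 in WT. The harvest hour is not given in the sources used here, and its part in the morning genes was not tested. The 3 morning calls were sensitive to single libraries: between 0 and 3 remained in the fits that left 1 out, with 1 without brm-1 ref6-1 replicate 3. CDF1, CDF2, RVE8, LHY, CCA1, PRR3 and TOC1 were named after their values were seen.

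**Figure D3:**
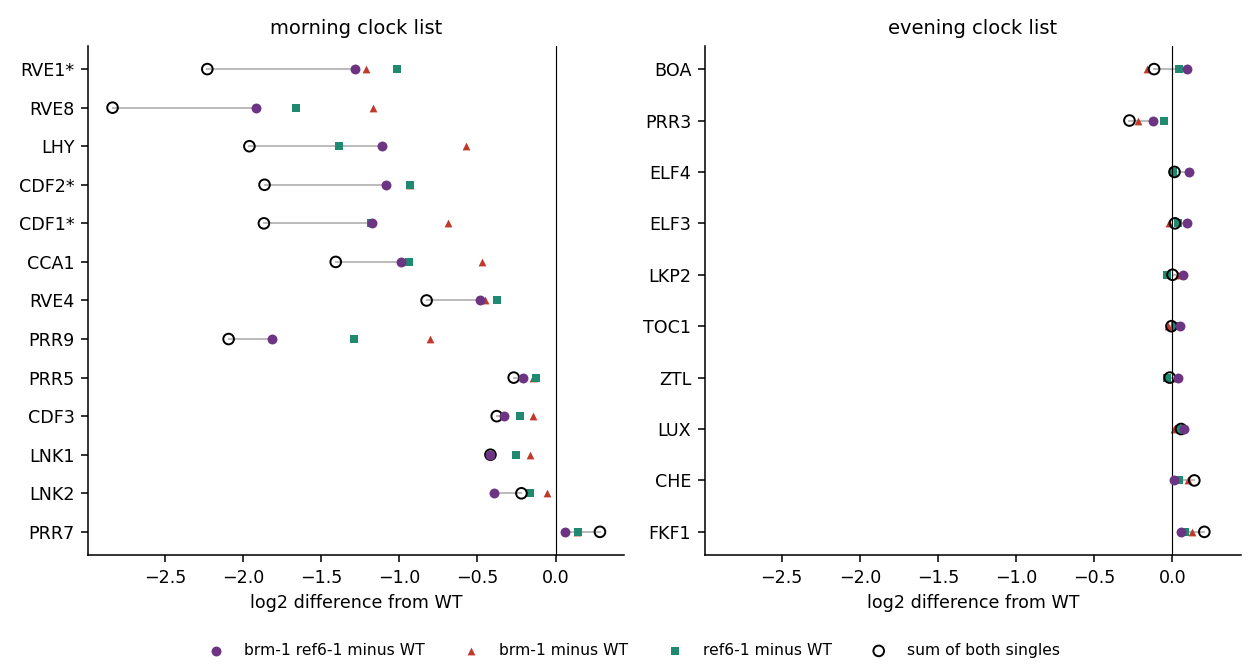
Log2 differences from WT in brm-1 ref6-1 (circles), brm-1 (triangles) and ref6-1 (squares) for the 13 morning and 10 evening clock genes, with the sum of both single mutants as open circles and an asterisk for a called interaction. Morning genes with large losses lie right of their sum, by 0.95 for RVE1 and 0.78 for CDF2, while evening genes stay within -0.15 and 0.21 of it.

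In other positive calls the libraries of the single mutants lay apart from each other. NUC-L2 (AT3G18610, chromosome 3, 6404053 to 6407946), a nucleolin gene active at ribosomal RNA genes, had 7.71, 8.29 and 9.76 CPM in brm-1 ref6-1, 19.6, 18.3 and 17.5 in brm-1, 1.78, 1.205 and 1.83 in ref6-1, and 13.5, 9.64 and 14.2 in WT. It rose by 0.57 in brm-1 (edgeR adjusted p = 0.02) and fell by 2.95 in ref6-1 (7.9e-06), and loss of BRM in ref6-1 raised it by 2.41 (3.3e-05). The interaction was 1.84 ± 0.26 (SE, edgeR adjusted p = 0.0159), and the call ended without ref6-1 replicate 2 (0.0609) and with limma-voom (0.0768), over a range of 2.99e-05 to 0.0768 in the log2 alternatives. On the CPM scale the departure was 0.972 ± 1.68 CPM (SE, limma adjusted p = 0.879).

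AT1G22350 (chromosome 1, 7892758 to 7894763), a transcribed pseudogene named after its values were seen, was the converse. It had 9.73, 9.77 and 9.76 CPM in brm-1 ref6-1, 4.15, 4.09 and 3.52 in brm-1, 21.7, 24.7 and 24.3 in ref6-1, and 23.5, 21.8 and 22.7 in WT. Loss of REF6 left it at the WT level in the WT background (0.05, edgeR adjusted p = 0.74) and raised it by 1.31 in the brm-1 background (6.4e-05), an interaction of 1.25 ± 0.13 (SE, 0.00164). Added as CPM, the departure of 4.95 ± 1.09 CPM was not called (SE, limma adjusted p = 0.154). That SE came from the spread of its own libraries within groups and not from the limma fit.

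CSLB03 (AT2G32530, chromosome 2, 13809019 to 13813572), a cellulose synthase-like gene, had 58.4, 62.7 and 57.4 CPM in brm-1 ref6-1, 52.7, 61.3 and 55.3 in brm-1, 20.4, 29.8 and 30.8 in ref6-1, and 51.5, 53.4 and 49.2 in WT. It was low in ref6-1 alone, and brm-1 ref6-1 overlapped brm-1. SNRK2-8 (AT1G78290, chromosome 1, 29457205 to 29459493), a kinase gene of drought and osmotic responses, had 29.5, 35.0 and 33.8 CPM in brm-1 ref6-1, 30.4, 36.7 and 32.5 in brm-1, 17.7, 22.2 and 26.03 in ref6-1, and 49.5, 43.2 and 42.8 in WT. Interactions were 1.01 ± 0.16 for CSLB03 and 1.02 ± 0.17 for SNRK2-8 (SE, edgeR adjusted p = 0.032 and 0.0366), called in 2 and 3 of the 12 fits that left out a library. LEA7 (AT1G52690, chromosome 1, 19619724 to 19621534), a late embryogenesis abundant gene, had 9.73, 11.4 and 10.8 CPM in brm-1 ref6-1, 5.67, 5.55 and 3.13 in brm-1, 6.39, 8.34 and 6.49 in ref6-1, and 9.12, 11.7 and 8.68 in WT. The combined mutant overlapped WT, with an interaction of 1.62 ± 0.29 (SE, edgeR adjusted p = 0.0438) that was lost in each of the 12 such fits. The summed level of the seed maturation genes was also highest in brm-1 ref6-1, and the part of embryo-type transcripts in LEA7 was not tested.

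Lower in ref6-1 than in brm-1 were also scpl46 (AT2G33530), a serine carboxypeptidase-like gene, and AT2G19650, of the C1 domain family, both named after their values were seen. For scpl46, libraries had 35.3 to 41.6 CPM in brm-1 ref6-1, 44.6 to 49.7 in brm-1, 25.2 to 27.04 in ref6-1 and 50.1 to 52.4 in WT. Loss of BRM in ref6-1 raised it by 0.54 (edgeR adjusted p = 0.00032), and the interaction was 0.68 ± 0.09 (SE, 0.00941). AT2G19650 had 18.1 to 23.7 CPM in brm-1 ref6-1, 24.3 to 30.3 in brm-1, 11.6 to 15.1 in ref6-1 and 38.4 to 46.1 in WT. It fell in both single mutants, by -0.55 in brm-1 (edgeR adjusted p = 0.0062) and -1.63 in ref6-1 (1.9e-05), with an interaction of 1.24 ± 0.18 (SE, edgeR adjusted p = 0.0182). Each was lost without 1 library, scpl46 without ref6-1 replicate 2 (0.0558) and AT2G19650 without brm-1 ref6-1 replicate 2 (0.0694).

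By the size of the single-mutant differences, 15 positive genes had both single mutants at least 0.5 below WT on the log2 scale, 3 had only brm-1, 6 only ref6-1, 1 (NUC-L2) opposed and 16 neither at that size. Of the negative genes, 5 had both single mutants at least 0.5 above WT (MAF5, FLC, SEP3, AT1G13650 and, named after its values were seen, AT3G13980), 1 only brm-1, 1 only ref6-1 and 6 neither. At a size of 1 the classes with both single mutants held 6 positive and 4 negative genes. The libraries that set these classes also enter the interaction, and the shares of the classes over all genes tested are not given. The interaction was at least 2-fold in 12 positive and 4 negative genes. On the CPM scale, the departure had the sign of the log2 interaction in all 54 genes. For positive genes with both single mutants below WT, that sign was fixed in advance. Summed CPM changes then predict a lower level than summed log2 changes do. This covers the 34 positive genes below WT in all 3 mutants, so the shared sign is no test of the scale for them. Of the 54, 19 overlap another counted gene in the annotation (15 positive and 4 negative).

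**Figure D4:**
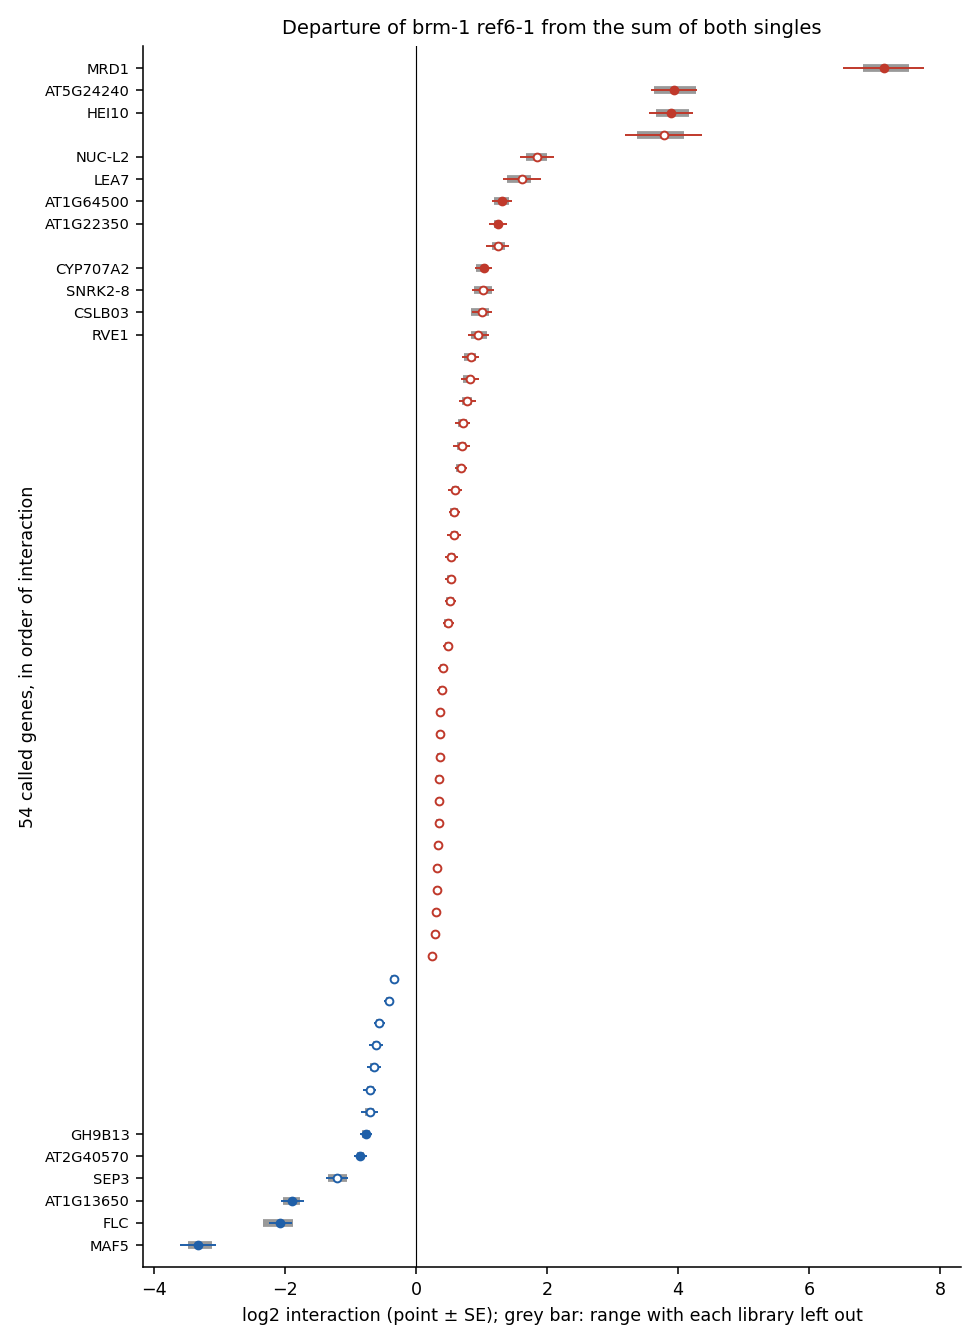
Log2 interaction of the 54 called genes (point, with its SE as a thin line) and its range when each of the 12 libraries is left out (grey bar). Filled points mark the 11 genes called in each of those 12 fits, names are given for these and for genes chosen by the naming rule, and no gene changed sign, from -3.33 for MAF5 to 7.14 for MRD1.

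Of the 54 called genes, 6 (11.1%) belonged to the 21 gene lists, which held 1.42% of all genes tested. The lists were chosen with earlier results of these data known, so these shares are no evidence of an excess. No call fell in 18 lists, also in each fit that left out a library. Lists with large changes in the combined mutant were among them. Of 19 salicylate defence genes, 14 fell in brm-1 ref6-1 against WT (17.3% of all genes tested), and their interactions had a median of -0.53, between -1.81 and 0.31. Of 19 cysteine-rich receptor-like kinase genes, 14 fell in brm-1 ref6-1 and 13 in ref6-1 (5.63% of all genes tested), with a median interaction of -0.30. CRK20, a member, had the smallest adjusted p of that list, for an interaction of -2.20 ± 0.48 (SE, edgeR adjusted p = 0.104). CRK20 was low in brm-1 ref6-1, at 0.768 CPM, and its departure on the CPM scale was -1.86 ± 2.28 CPM (SE). Of 21 seed maturation genes 9 passed the filter on low counts. Most of the 9 were near 0 in WT and could pass only through the mutants, so no count of rises and no median is given for them. ABI5, a transcription factor of abscisic acid responses, had the smallest adjusted p there, at 0.56 ± 0.11 (edgeR adjusted p = 0.0735). Photosynthesis genes lay close to the sum, with 0 of 20 called, a median of -0.10 and a range of -0.24 to 0.13.

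Among the remaining lists with 0 calls, cold and abscisic acid genes had a median interaction of 0.23 (21 measured), jasmonate and ethylene defence 0.16 (17), flavonoid synthesis 0.02 (19), cytokinin 0.08 (16), auxin -0.10 (17) and meristem and organ boundary -0.07 (14). Brassinosteroid and gibberellin genes had one of -0.05 (14), expansins and xyloglucan enzymes -0.17 (19), nitrate 0.02 (5), leaf senescence 0.14 (8) and root markers 0.31 (9). SWI/SNF, H3K27 demethylase and Polycomb genes had -0.01 (18), BRM included. No median is given for the 7 iron deficiency genes measured, of which some were near 0 in WT and passed the filter through the mutants. With a median SE of 0.10 per gene, and larger ones for low genes, a list of 0 calls is not shown to be additive. CRK20 and ABI5 were named after their values were seen.

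Calls differed in how far they rested on single libraries. In each of the 12 fits that left out a library, 11 genes were called: MAF5, FLC, AT1G13650, AT5G24240, HEI10, MRD1, AT1G22350, AT1G64500, GH9B13, AT2G40570 and CYP707A2. A further 4 were called in 11 fits (scpl46, SEP3, NUC-L2 and AT2G19650). In all, 23 genes were called in at least 6 fits and 21 in fewer than 3. The number called ran from 12 without ref6-1 replicate 2 to 55 without brm-1 ref6-1 replicate 3. It was 17 without WT replicate 1, 23 without WT replicate 2, 21 without brm-1 replicate 2, 21 without brm-1 replicate 3 and 15 without brm-1 ref6-1 replicate 2. In the fit without brm-1 ref6-1 replicate 3, 14 further genes passed, among them the clock gene RVE2 (0.87 ± 0.13) and the B-box gene BBX18 (1.16 ± 0.19), chosen after their values were seen.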

How the data were processed

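RNA of whole seedlings was sequenced as paired reads from 12 libraries, 3 for each of 4 genotypes. The authors deposited raw counts per locus, and the submitters' processing notes name TopHat2 and the build TAIR10. No source used here gives versions, the counting tool or its strand setting, so overlapping genes may share reads. All columns of the table were used, 1 per sample, with genotypes taken from the labels. Of 29420 loci, 28932 matched TAIR10.1, whose names and coordinates are given. The counts were filtered by expression (filterByExpr), scaled by TMM and fitted with edgeR 4.0.16 (R 4.3.3), with 1 mean per genotype, by robust quasi-likelihood and two-sided tests. The p-values were adjusted by Benjamini-Hochberg over all 22076 genes tested, with a threshold of 0.05. Additivity of CPM was tested with limma 3.58.1 (limma-trend), and DESeq2 1.42.0 and limma-voom were alternatives. The interaction test was also run on simulated counts in which only brm-1 ref6-1 was changed. That simulation held no single-mutant changes, and its outcome is not given here. Values per library are CPM, and ± gives the SE of the fitted difference on the log2 scale. For a departure in CPM, ± gives an SE formed from the spread of that gene's libraries within each genotype. It does not come from the limma fit that gave the adjusted p beside it. The naming rule took BRM, REF6 and FLC, then called genes with a symbol, an interaction of at least 1 in size on the log2 scale and a mean of at least 2 CPM, up to 12 in each direction by adjusted p, then the called member of each list with the smallest adjusted p. Genes outside it are said to be named after their values were seen. The members, lists and tests were chosen with earlier results of these data known.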

Additional observations from a re-analysis of the deposited data

How the results depend on the processing

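Of the 54 called genes, 21 were called in fewer than 3 of the 12 fits that left out a library. All 54 kept their sign under each alternative run. Each alternative reused libraries that gave the calls, so the kept signs say little about stability. The interactions of BRM and REF6, which were not called, did not keep their sign. Without 1 library at a time BRM ranged from -0.07 to 2.27 and REF6 from -0.08 to 0.02. The count of 54 was 95 with DESeq2 (63 positive and 32 negative, 46 shared), 98 for additivity of CPM (71 and 27, 46 shared), 12 at an adjusted p under 0.01 and 16 at a change of at least 2-fold. It was 51 to 53 with DESeq2 size factors, library totals, no filter or at least 1 CPM in 6 libraries, and 42 with limma-voom. Leaving out 1 library at a time gave 12 to 55 calls, 7 to 40 positive and 5 to 15 negative. The same fits gave 364 to 1144 genes for brm-1 ref6-1 against brm-1, 862 to 1985 for ref6-1 against WT, 1695 to 2632 for brm-1 ref6-1 against ref6-1, 2705 to 4491 for brm-1 against WT and 4692 to 7077 for brm-1 ref6-1 against WT. Positive genes with both single mutants lower numbered 5 to 15, and 6 at a difference of 1, and negative genes with both higher numbered 3 to 8. Calls in the floral organ list were 0 to 1 and in the morning clock list 0 to 3. The cause of these shifts was not tested.

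Whether replicate numbers pair the libraries was not settled. Deviations of same-numbered libraries correlated between -0.19 and 0.29, and those of differently numbered ones between -0.31 and 0.26. Same-numbered correlations were over 0.1 in 6 of 18 pairs, and 6 of 12 libraries correlated best with their own number. With the replicate block 72 genes were called, 55 positive and 17 negative, 48 of them shared.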
